A study of Mus musculus with 6 samples.

Results

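The 995 exons described here belong to long intergenic non-coding RNAs (lincRNAs) and were read on both strands of the mouse genome by a 1-colour array. They were chosen by probe name: an exon number of the array's mm9 lincRNA exon set was kept when its + probe and its - probe were both in the deposited value table. Of 1729 such exons with a probe on the array, 1728 had a probe for each strand, and 995 (57.6%) met the rule. Another 611 had only 1 strand in the table (375 only -, 236 only +), and 123 had neither. Each exon had 1 probe per strand, so the 995 exons gave 1990 probes.

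Brain RNA came from male C57BL/6 mice aged 9 months, 3 wild-type (WT) and 3 APP/PS1 mice, a transgenic line that forms amyloid plaques. The labels do not name the promoter that drives the transgenes, and the brain was taken with no region given. Total RNA was depleted of ribosomal RNA and copied by random priming into Cy3-labelled cRNA. The labels describe the 3 samples of each genotype as biological replicates.

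LincRNAs are spliced transcripts without a protein product that lie between coding genes; members of the class act on chromatin, on transcription of nearby genes or as scaffolds for proteins, and many are made in brain. Early catalogues found their exons from chromatin marks and tiling arrays, which often left the transcribed strand unknown, so an array may carry a probe for each strand. Signal on a strand is read as RNA of that orientation, and signal on both strands of an exon can come from overlapping sense and antisense transcripts. Here + and - are the signs in the probe names; which genomic strand each sign stands for, and the exons' positions and host genes, are not given in the sources used here. The exons are therefore called by number (exon 11795 is MM9LINCRNAEXON11795).

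The value table held log2 signals of 48436 probes with a median of 7.06 in every sample. WT replicates 2 and 3 stood apart as a near-identical pair: with trends across the array surface removed, 24217 bright probes scattered by 0.0289 (log2) between them, against 0.0665 to 0.0882 for the other pairs of a genotype. All 14 probes printed as repeated bright spots scattered more than that between WT arrays 1 and 2 (median 0.0744, with no position correction). Since the pair differed by less than the noise of repeated spots, it was averaged and counted as 1 sample (WT n = 2; APP/PS1 n = 3). Scanner files of 5 arrays were used (none of WT replicate 3). Each genotype's scanned arrays sat on a slide of their own, so an effect of the slide cannot be told apart from that of genotype. Fewer cells of a type and less RNA per cell cannot be told apart either, since brain was measured in bulk. None of 27 marker genes of brain, blood and other tissues had a probe named by the files, so the labelled tissue was not checked by its markers.

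In brain, the strands of most of these exons differed in signal by at least 2-fold in the authors' table, with the brighter strand split about evenly between the signs; with a normexp background correction of the scanner signals, 444 lay within 2-fold. In 492 exons (49.4%) 1 strand was above the table's median level and the other was not, in 133 both were above it, and in 370 neither was. Over the mean of both genotypes, the + probe was at least 2-fold brighter for 390 exons and the - probe for 421, while 184 (18.5%) lay within 2-fold. The counts were alike in every sample: + was brighter by 2-fold for 389 to 391 exons in WT and 374 to 392 in APP/PS1, and - for 417 to 422 and 406 to 416. The brighter strand had a median log2 level of 7.94 (range 3.30 to 17.16) and the dimmer strand 5.01 (range 2.42 to 11.84), beside 7.05 for all probes of the table. The median size of the difference between strands was 2.60 (log2), and 307 exons (30.9%) differed by at least 16-fold. These differences compare probes of different sequence, which bind with different strength, so they describe signal and not a ratio of transcripts; the binding strength of a probe cancels only when the same probe is compared between samples.

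**Figure D1:**
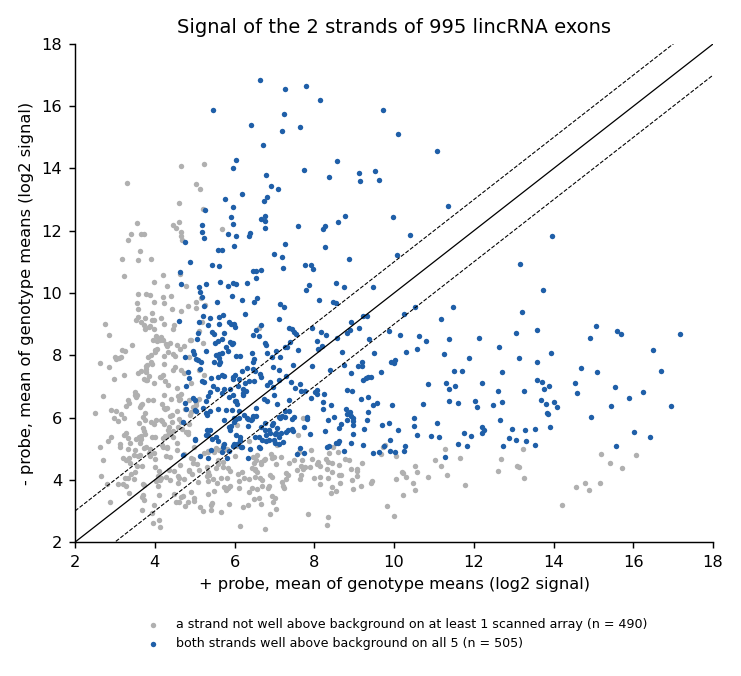
Log2 signal of the + probe (x axis) and the - probe (y axis) of each of 995 lincRNA exons, as the mean of the WT mean and the APP/PS1 mean; blue marks the 505 exons with both strands well above background on all 5 scanned arrays, grey the other 490. The solid line is equal signal and the dashed lines a 2-fold difference; points spread along both axes, with 184 exons between the dashed lines.

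Levels of the + and - strands of an exon were close to uncorrelated. Across the 995 exons, which share the same arrays, the levels of the strands correlated at r = -0.0237 (Spearman's rho -0.0256), and at r = -0.111 over the 505 exons with both strands well above background on all 5 scanned arrays. Those 505 exons (50.8%) gave signal from both orientations. The strands still differed in size there: + was brighter by 2-fold for 205, - for 193 and 107 lay within 2-fold, with a median difference of 2.39 (log2) and 156 exons past 16-fold. The brighter strand was well above background on all 5 arrays for 923 exons and the dimmer strand for 507.

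Detection differed between arrays. Both strands were well above background for 631 and 609 of the 995 exons on the WT arrays and for 653, 827 and 871 on the APP/PS1 arrays; every APP/PS1 array was above both WT arrays. Over all 1728 exons with a probe for each strand, whether or not in the table, the counts were 637 and 614 in WT and 660, 852 and 900 in APP/PS1. There the - strand alone was detected more often than the + strand alone on every array (488 against 311 and 486 against 319 in WT; 483 against 312, 442 against 268 and 416 against 265 in APP/PS1). The APP/PS1 arrays were brighter as a whole, with a median processed signal of 73.0, 83.3 and 82.9 against 59.4 and 58.6, and the part of this in the detection counts was not tested.

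The exons furthest toward the + strand were 12079, 11400, 11377, 11792 and 10074. For exon 12079 the + probe read 15.95, 16.02 and 16.05 in WT and 15.32, 15.54 and 15.50 in APP/PS1, while the - probe read 4.34, 4.76 and 5.10 and then 4.60, 4.33 and 3.43. Every sample thus had a difference of 10.72 or more (log2). However, this - probe was well above background on only 1 of 2 scanned WT arrays and 2 of 3 APP/PS1 arrays. The - probe of exon 11400 was so on 2 of 3 APP/PS1 arrays. Exon 10074 had the brightest + probe of the 5, at 16.67 ± 0.10 (SD, n = 2) in WT and 16.18 ± 0.06 (SD, n = 3) in APP/PS1, and its - probe was well above background on all 5 scanned arrays at 5.25 and 5.52. Exons 11377 and 11792 had - probes that were not well above background on at least 1 genotype's arrays. In this set the + strand fell in 12079, 11792 and 10074 (log2 changes of -0.54, -0.54 and -0.49) and 1.99-fold in 11377, and exon 11400 had -0.27 (limma adjusted p = 0.0725).

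The exons furthest toward the - strand were 12109, 11723, 10608, 10626 and 12032. Exon 10608 had the brightest - probe of the 5, at 16.72, 16.66 and 16.60 in WT and 16.96, 17.03 and 17.07 in APP/PS1, with a + probe between 6.25 and 6.93 in all 6 samples. Its - strand rose by 0.35 ± 0.07 (SE, log2; limma adjusted p = 0.0301), and so did that of exon 10626 (0.27, adjusted p = 0.0419). For exon 12109 the - probe read 15.62 to 16.06 and the + probe 5.28 to 5.72, and neither change passed the threshold. The + probe of exon 11723 was not well above background on any scanned array, so its strand difference (log2; -10.05 in WT and -10.43 in APP/PS1) rests on a + value with no measured level.

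At the other end, 68 exons had a dimmer strand with a level of 8 or more, and 133 had both strands above the table's median. The highest dimmer strands were those of exons 11331, 12026, 10763, 10891 and 11702. Exon 11331 read 13.77, 13.67 and 13.71 in WT and 13.98, 14.28 and 14.32 in APP/PS1 on +, and at most 12.03 in WT (mean 12.02) and then 11.78, 11.59 and 11.61 on -. The groups did not overlap on either strand; the - strand fell by 0.36 (adjusted p = 0.0411), and the + strand had a change of 0.46 (adjusted p = 0.0577). Exon 10891 read between 13.08 and 13.23 on + and between 10.85 and 11.02 on - in every sample, with changes of 0.13 (adjusted p = 0.17) and 0.00 (adjusted p = 0.99). In exon 10763 both strands fell, by 0.65 and 0.56. In exons 12026 and 11702 only the - strand passed the threshold (-0.51 and -0.66). Their + strands had changes of -0.20 and -1.08 (adjusted p = 0.395 and 0.0976), the latter larger in size than that of its - strand. Whether the strands of those exons differed in their change did not pass the threshold (adjusted p = 0.334 and 0.543).

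The brighter strand was the same in all 6 samples for 871 exons (87.5%), and 655 kept a difference of at least 2-fold in every sample (317 on + and 338 on -). A further 106 exons had samples of 1 genotype on both sides of 0, and their median difference was 0.41 in size (log2). The remaining 18 turned between genotypes, with every WT sample on 1 side of 0 and every APP/PS1 sample on the other: 9 went from + to - and 9 from - to +. The change of the difference passed the threshold in 6 of the 18.

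**Figure D2:**
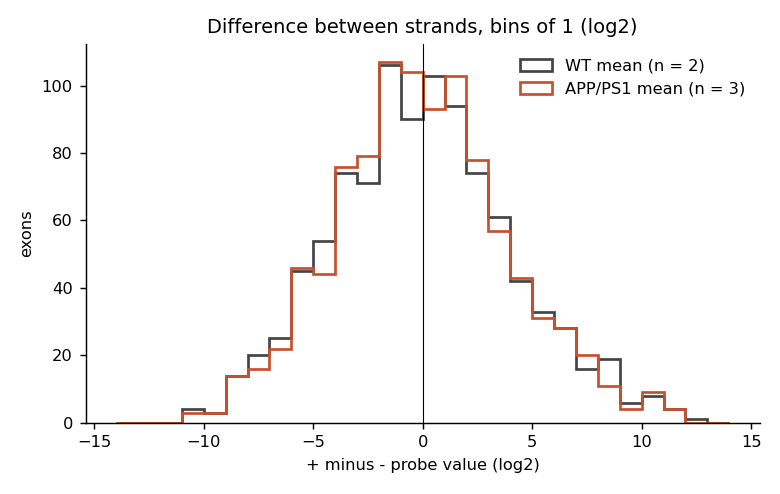
Number of exons (y axis) by the difference between the + and - probe values (log2, x axis, bins of 1) for the WT mean and the APP/PS1 mean. Exons spread widely on both sides of 0, and the median difference of the single samples lies between -0.04 and -0.22.

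The genotype comparison asks which of these strands differ in level between APP/PS1 and WT brain. With limma over all 48436 probes (threshold: adjusted p under 0.05), 592 of the 1990 probes passed (29.7%), beside 30.1% of all probes of the table, so the share was near the background. Falls were more common: 199 probes rose and 393 fell, and 1398 did not pass; over all probes 14.2% rose and 15.9% fell. The median change of the 1990 probes was -0.13 (log2), against -0.03 for all probes. By strand, 94 + probes rose and 208 fell, and 105 - probes rose and 185 fell. Changes of at least 2-fold numbered 25 rises and 40 falls among the 1990 probes. All 48436 probes had 1301 such rises (2.69%) and 808 such falls (1.67%). Probes not well above background in 1 genotype were taken at a lower bound explained further on. Without APP/PS1 replicates 1, 2 and 3 the count was 364, 299 and 305. Without WT replicate 1 only 1 WT sample was left, the mean of replicates 2 and 3. That fit has no spread within WT, so only sizes of change are given from it, here and below.

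The falls lay mostly on the brighter strand. Of the 995 brighter-strand probes 37.3% passed (93 rose and 278 fell), with a median change of -0.20. Of the dimmer-strand probes 22.2% passed (106 rose and 115 fell), with a median of -0.05. Level differs between these sets, so each was also set beside all probes of the table at the levels of its middle quartiles. There, 38.0% of the brighter-strand probes passed against 36.6% of all probes at those levels, and 18.9% of the dimmer-strand probes against 19.4%. The shares that passed were thus near the background at those levels. Of the brighter-strand calls 21.7% were rises against 44.8% for all probes (median changes -0.20 and -0.05), and of the dimmer-strand calls 46.8% against 49.6%. The 611 probes of exons with 1 strand in the table had a median level of 6.13, and 30.9% of them passed, with 38.1% of those calls rises.

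Changes on the 2 strands of an exon were nearly unrelated. Across the 995 exons the log2 changes of the + and - probes, which were read on the same arrays, correlated at r = 0.067, and at r = 0.0598 over the 505 exons with both strands detected. Only 1 strand passed in 418 exons (the brighter in 284 and the dimmer in 134), neither in 490, and both in 87 (8.74%), where the product of the shares of the 2 strands is 8.85%. Of these 87, both strands rose in 18, both fell in 41, and the strands went in opposite directions in 28, 14 with + up and 14 with - up.

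**Figure D3:**
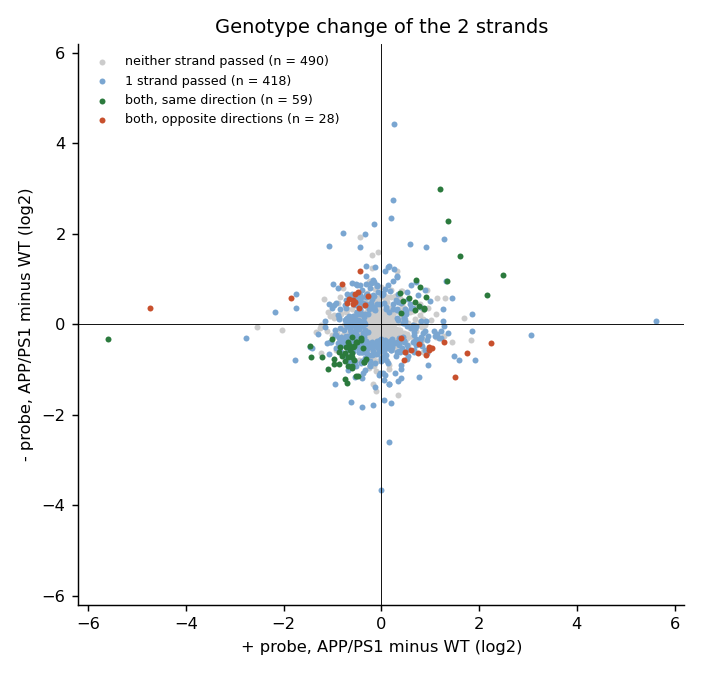
Log2 change from WT to APP/PS1 of the + probe (x axis) and the - probe (y axis) of each exon, coloured by which strands passed a limma adjusted p of 0.05. Values are as fitted, also for probes not well above background in 1 genotype, and the furthest points lie near an axis, that is with a large change on 1 strand; 59 exons had both strands past the threshold in the same direction and 28 in opposite directions.

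In 12 exons a strand passed the threshold with a change of at least 4-fold (6 rises and 6 falls; 0.603% of the 1990 probes beside 0.846% of all probes), and in 0 of them did both strands. Here and in the 2-fold counts, a probe that no scanned array of 1 genotype had well above background entered at its lower bound: the brighter genotype's mean against the other's mean, in which each array's value is raised to that array's lowest value of a probe well above background wherever the probe reads lower (4.36 and 4.64 on the WT arrays, 3.56 to 4.33 on the APP/PS1 arrays). A probe not well above background can read above that lowest value, as the + probe of exon 10071 did on WT array 1 (4.38). Folds given as at least a value are therefore approximate bounds and not strict limits. Of the 12 probes, 8 were measured in both genotypes and 4 are such bounds. The other strand had a median fitted change of 0.26 (log2) in size and stayed within 1.5-fold in 11 of the 12.

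Exons with both strands changed in the same direction included 10093, 11364, 11077 and 12111. Exon 10093 fell by nearly the same amount on both strands: + read 13.65, 13.65 and 13.57 in WT and 12.78, 12.72 and 12.80 in APP/PS1, and - read 9.81, 9.84 and 9.91 and then 8.99, 8.93 and 9.00. The log2 changes were -0.86 ± 0.07 and -0.87 ± 0.07 (SE; limma adjusted p = 0.00369 and 0.00374), and the strand difference was 3.79 in both genotypes. Exon 11364 fell by 0.96 on + and 0.88 on -. Exon 11272 met the rule too, but its + probe was not well above background on any scanned array, so no fold is given for it. That + call was lost in the scanner signals scaled to the 75th percentile (adjusted p = 0.113), with median centring (0.086) or normexp (0.152), and with the trended variance model (0.0902). Its - strand fell by 0.99 and lost its call without each of the APP/PS1 replicates (adjusted p = 0.0658, 0.0743 and 0.0603) and at the 75th percentile (0.0574).

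Among rises on both strands, exon 11077 read 6.93, 6.80 and 6.79 in WT and 8.46, 8.49 and 8.44 in APP/PS1 on +, a 3.03-fold rise (adjusted p = 0.00168). Its - strand, not well above background in WT, was higher in APP/PS1 by at least 1.31-fold. Exon 10071 was well above background on neither strand in WT and on both strands on all 3 APP/PS1 arrays. It was higher in APP/PS1 by at least 2.41-fold on + and at least 1.47-fold on -. Its - strand lost its call without APP/PS1 replicates 1 and 2 (adjusted p = 0.0783 and 0.0804). Exon 12111 rose 7.96-fold on -, from 5.15, 5.08 and 5.02 to 8.07, 8.12 and 8.09, and 2.28-fold on +. The + call of exon 12111 was lost without APP/PS1 replicates 1 and 2 (adjusted p = 0.0539 and 0.0678). Its + change was 0.93 (log2) without WT replicate 1, against 1.19 in the main fit.

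The next question was whether the balance between the strands of an exon changed with genotype. The + value minus the - value was taken in each sample and compared between genotypes with limma over all 995 exons, which is a test of the difference between the strands' changes. Of the 995, 111 passed (11.2%), 60 toward + (6.03%) and 51 toward - (5.13%) in APP/PS1, with fitted changes of 0.71 or more (median 1.35, log2); 36 of the 111 had a strand that no scanned array of a genotype showed well above background, and among the other exons the largest change was 3.65 (exon 10133). The fit on the 505 exons with both strands detected called 152 (30.1%), 71 toward + and 81 toward -, of which 61 are among the 111, and normexp called 306 of 995, 146 toward + and 160 toward -. In all 111 the groups did not overlap, as was so for 50.3% of the 995. The change came with 1 strand past the per-probe threshold in 75 exons (the brighter in 38 and the dimmer in 37), both in opposite directions in 26, both in the same direction in 5, and neither in 5. The count was 11, 6 and 9 without APP/PS1 replicates 1, 2 and 3. All 111 kept their direction in these fits, as groups that do not overlap must, so this lends the calls no support.

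**Figure D4:**
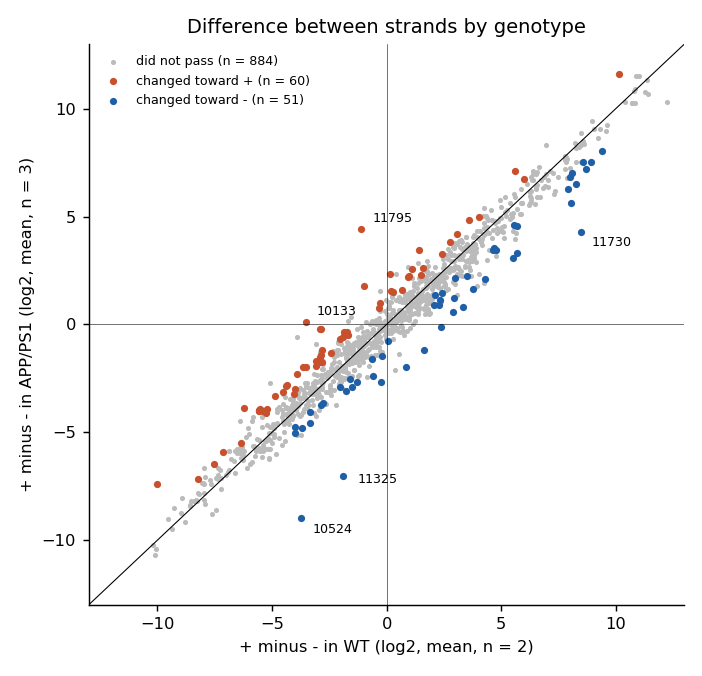
Difference between the + and - probe values (log2) of each exon in WT (x axis, mean, n = 2) and APP/PS1 (y axis, mean, n = 3); the line is equality. Coloured points are the 60 exons that changed toward + and the 51 toward - at a limma adjusted p of 0.05, and 5 exons with large changes are named.

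The typical size of the strand difference was lower in each APP/PS1 sample than in either WT sample, a comparison too small to reach 0.05. The difference was smaller in APP/PS1 in 69 of the 111 exons that changed and in 587 of all 995 (59.0%), and in 288 (57.0%) of the 505 with both strands detected on every scanned array. The median size per sample was 2.72 and 2.76 in WT (WT replicate 1 and the mean of replicates 2 and 3) and 2.59, 2.62 and 2.60 in APP/PS1. The groups did not overlap, and the exact permutation test (two-sided) gave p = 0.1, the smallest that 10 splits allow. Over the 505 exons the medians were 2.53 and 2.50 in WT and 2.35 to 2.37 in APP/PS1. In the scanner signals the APP/PS1 arrays also detected more dim strands, as given above, and the part of this in the smaller differences was not tested.

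In 4 exons the fitted change of balance was led by 1 strand that was well above background in 1 genotype and not in the other, so the fitted size depends on values at background and only a bound is given. The + probe of exon 11795 read 3.08, 2.44 and 2.43 in WT and 8.26, 8.42 and 8.41 in APP/PS1. Neither scanned WT array had it well above background and all 3 APP/PS1 arrays did, where it was at least 14.6-fold higher; the - probe had a change of 0.07 ± 0.34 (SE) and was well above background on 1 of 5 arrays. In WT neither strand was well above background, so their order there is not measured. The change of the strand difference toward + had an adjusted p of 0.00475. With a normexp background correction the + probe had a change of 2.21 (log2), below the bound given here.

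Exon 10524 went the other way on its + strand. That probe read 8.52, 8.43 and 8.52 in WT and 2.37, 3.53 and 2.78 in APP/PS1, where no array was well above background, and was at least 25.3-fold higher in WT. The - probe was bright throughout, at 12.20, 12.12 and 12.36 in WT and 11.93, 11.94 and 11.79 in APP/PS1, a fall of 0.33 (adjusted p = 0.0389). The change of the strand difference had an adjusted p of 0.00559. With normexp that change was -1.95 (log2), against -5.27 in the main fit.

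Exon 11325 lost its + signal in APP/PS1 as well, from 7.51, 7.15 and 7.43 to 2.37, 2.55 and 3.05, at least 11.8-fold higher in WT, while its - strand rose 1.29-fold from 9.27, 9.34 and 9.40 to 9.69, 9.67 and 9.70. The rise of the - strand (adjusted p = 0.0212) lost its call without each APP/PS1 replicate (0.0617, 0.0658 and 0.0697). The change of the difference had an adjusted p of 0.00335. With normexp the + strand had a change of -1.44 (log2), smaller in size than its bound.

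Exon 11730 gained a - signal beside a bright + strand. Its - probe read 2.41, 2.44 and 2.43 in WT, the lowest value of each column, and 6.96, 6.73 and 6.87 in APP/PS1, at least 5.11-fold higher. Its + probe read 10.96, 10.73 and 10.93 and then 11.27, 11.09 and 11.08, a change of 0.25 ± 0.10 (SE; adjusted p = 0.116). The change of the strand difference toward - had an adjusted p of 0.00156. The - probe sat at the lowest value in every WT sample, so its small WT spread (SD 0.02, n = 2) does not measure variation between samples. With normexp the - strand of exon 11730 had a change of 1.21 (log2), below its bound. Its strand difference then changed by -0.94, against -4.18 in the main fit.

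The change of balance was also led by 1 strand in exons 10133 and 10204, with both strands well above background on all 5 scanned arrays. In exon 10133 the - strand fell 12.6-fold, from 9.17, 9.09 and 9.08 to 4.85, 5.60 and 5.95, while the + strand read 5.50 to 5.74 in all 6 samples. A difference of -3.54 ± 0.17 (SD, n = 2) in WT thus became 0.11 ± 0.66 (SD, n = 3) in APP/PS1, where the strands had about equal signal (adjusted p = 0.015). In exon 10204 the - strand fell 6.06-fold, from 7.26, 7.44 and 7.45 to 5.10, 4.52 and 4.64, with + between 5.99 and 6.77, and the brighter strand turned from - to + (adjusted p = 0.0216). Without WT replicate 1 the change of the difference was 3.53 (log2) for exon 10133 and 3.17 for exon 10204. Exon 10133 lost its call without APP/PS1 replicates 2 and 3 (adjusted p = 0.0712 and 0.0601), and exon 10204 without each of the 3 (0.0506, 0.0863 and 0.081).

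Exon 10352 changed on both strands in opposite directions. Its + strand rose 2.83-fold, from 6.18, 5.96 and 5.85 to 7.68, 7.54 and 7.41, and its - strand fell 2.24-fold, from 8.86, 9.04 and 8.94 to 7.85, 7.72 and 7.72. An exon with a clear - excess in WT (difference -2.88 ± 0.29, SD, n = 2) thus had nearly equal signal on both strands in APP/PS1 (-0.22 ± 0.08, SD, n = 3). The change of 2.66 ± 0.19 (SE) had an adjusted p of 0.00563, and of 0.0504 without APP/PS1 replicate 2. Its size was 2.86 without WT replicate 1.

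**Figure D5:**
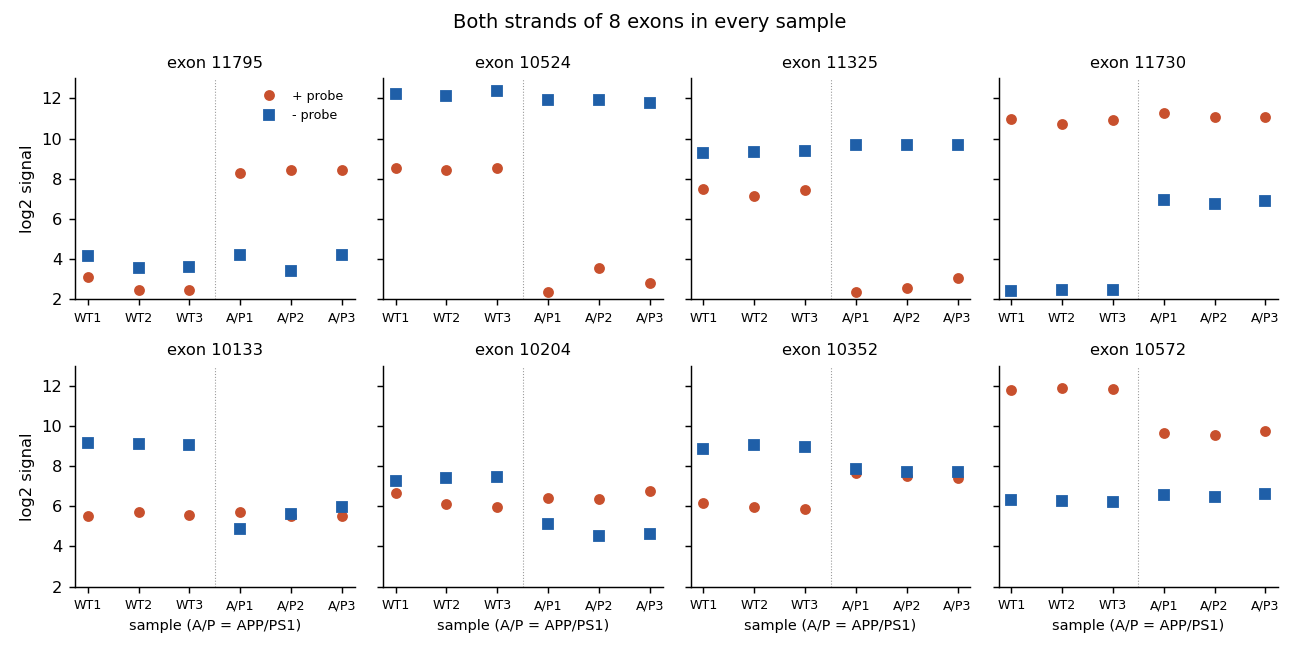
Log2 signal (y axis) of the + probe (circles) and the - probe (squares) in each of the 6 samples (x axis) for 8 exons. In 7 exons 1 strand moves by over 2 units (log2) between genotypes and the other by under 0.4; in exon 10352 the + strand rises and the - strand falls.

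In exons 11063, 10474 and 11889 the strands also passed in opposite directions, but each + probe was not well above background in at least 1 genotype. Exon 11063 had a bright - strand that fell by 0.41 (12.44, 12.44 and 12.51 against 12.04, 12.01 and 12.08) and a + strand, not well above background in WT, that was higher in APP/PS1 by at least 1.12-fold. In exon 10474 the - strand fell by 0.63 and the + strand, not well above background in WT, was at least 1.18-fold higher. Exon 11889 had a + probe that was not well above background on any scanned array, so its fitted fall has no measured level. Its - strand had a rise of 0.59. Several of these strand calls were lost under alternatives. Without 1 APP/PS1 replicate, the - call of exon 11063 was lost for replicate 2 (adjusted p = 0.0532). The + call of exon 10474 (0.0717 to 0.102) and the - call of exon 11889 (0.0724 to 0.0834) were lost for each. That of exon 11889 was also lost without WT replicate 2 (0.0642). The + call of exon 10474 was lost with normexp (0.0641) and the replicate block (0.0537), and the - call of exon 11889 with normexp (0.281), the trended variance model (0.0628) and the block (0.0692). The change of the difference in each of these 3 exons lost its call without APP/PS1 replicate 2 (adjusted p = 0.0693, 0.0863 and 0.0576). Exons 11063 and 10474 also lost it without APP/PS1 replicate 1 (0.0506 and 0.0709), and exons 10474 and 11889 without replicate 3 (0.109 and 0.0651).

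Of the 18 exons whose brighter strand turned, 14 had both strands well above background on all 5 scanned arrays, and 3 of these passed the threshold: 10204, 10248 and 10128. Exon 10248 went from a difference of -0.35, -0.20 and -0.25 in WT to 0.92, 1.16 and 0.94 in APP/PS1, with its + strand up 1.92-fold. Exon 10128 went from -0.36, -0.38 and -0.24 to 0.68, 0.82 and 0.71, with its - strand down 2.16-fold. Both lost their call without each APP/PS1 replicate (adjusted p = 0.0643 to 0.0863 and 0.0688 to 0.0926). Without WT replicate 1 their differences changed by 1.23 and 1.05 (log2). Turns from + to - with detected strands were smaller, such as exon 10650 (change of -0.96, adjusted p = 0.053), exon 10761 (-0.74, adjusted p = 0.0658) and exon 10601 (-0.65, adjusted p = 0.0823), none of which passed. Exon 11360, from - to +, had a change of 1.90 (adjusted p = 0.136), with a - value of 6.99 in WT replicate 1 against 4.92 and 4.95 in the other WT samples. Its + probe was well above background on 0 of 2 scanned WT arrays, so this size depends on values at background.

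In exons 10998 and 10971 the difference went from above 0 to below 0 and its change passed (adjusted p = 0.0365 and 0.015), on weak signal. Their + probes were well above background on 0 and 1 of the 5 scanned arrays, and their - probes on no WT and all 3 APP/PS1 arrays; the - strand of exon 10998 was higher in APP/PS1 by at least 1.33-fold, and for exon 10971 no fold can be given. Exon 11571 changed toward + (adjusted p = 0.0248), with a + probe that no scanned WT array had well above background and a rise of at least 1.07-fold. With a normexp background correction the changes of exons 10998 and 10971 were -0.22 and -0.26 and did not pass, and with the other scalings of the scanner signals the adjusted p of exon 10998 was 0.0509 to 0.0514. Without 1 APP/PS1 replicate the adjusted p reached at most 0.106, 0.0765 and 0.091 for exons 10998, 10971 and 11571.

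Of 10 lincRNA exon probes named in an earlier description of these data, 8 belong to exons read on both strands, and the partner strand is given here. Exon 11100 had a bright + strand at 11.73, 11.38 and 11.57 in WT and 11.51, 11.49 and 11.32 in APP/PS1, beside the - strand's rise from 5.85, 6.04 and 5.88 to 8.16, 8.09 and 8.12; the change of the difference was -2.38 ± 0.19 (SE, adjusted p = 0.00737). Exon 10572 fell on +, from 11.78, 11.89 and 11.83 to 9.64, 9.55 and 9.74, while - read 6.23 to 6.63 in all samples (change of the difference -2.45, adjusted p = 0.00475). In exon 10138 the - strand fell by 1.79 and the + strand had a change of -0.18 (adjusted p = 0.33). In exon 10155 the - strand fell by 1.24, and the + probe was well above background on 0 of 2 scanned WT arrays and 2 of 3 APP/PS1 arrays. These exons, with 11795, 11730, 11325 and 12111, had been picked for the change of 1 probe, so their change is a description and no support for the counts above.

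Some strands were detected in 1 genotype alone. Of the 1990 probes, 68 (3.42%) were well above background on all 3 APP/PS1 arrays and neither scanned WT array, beside 3.02% of all probes. The reverse held for 3 probes (0.151%, beside 0.120% of all probes). The share in each direction was near the background of the table, where the APP/PS1 arrays detected more probes in all.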

How the data were processed

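Scanner output gave the intensity of each spot of an mm9 array, per the file headers, with a processed signal from which background was subtracted; the software was Agilent Feature Extraction 11.0.1.1, per the submitters' processing notes. The authors' deposited value table holds log2 signals with nearly equal quartiles in all columns; its normalization and filter are not given in the sources used here. Its columns correlated with the log2 processed signal of the same array at 0.99965 or more. It holds 48436 of 61194 non-control spots, tied to probe names by spot number.

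All tests were two-sided linear models of limma 3.58.1 (R 4.3.3) with eBayes moderation and p-values adjusted by Benjamini-Hochberg (threshold 0.05), on 2 WT against 3 APP/PS1 samples: per probe over the whole table, and on + minus - per exon over 995 exons. An exon's level is the mean of the genotype means. The number of arrays limits the precision. The scripts were tested on simulated data. Members, lists and tests were chosen with earlier results of these data known. Exons named are the 5 with the largest strand difference toward each sign, the 5 largest changes of the difference in each direction with groups that do not overlap, 3 rises and 3 falls on both strands, 5 opposite changes, 5 turns per direction, the 5 highest dimmer strands, and probes named earlier. Alternatives covered scaling, background (normexp, offset 50, on the median signal), filters, the variance model, the threshold, leaving out single samples and a block for the replicate number. No spot of the 1990 probes was saturated, and 3 readings flagged as outliers were left out of the scanner alternatives.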

Additional observations from a re-analysis of the deposited data

How the results depend on the processing

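The number of arrays, n = 2 against 3 on separate slides, limits every value, and strands near background are approximate bounds. Of the 1990 probes 592 passed (29.7%). Other scalings, normexp and the trended variance model kept this count within 1.5 times, and a 2-fold limit with p of 0.05 unadjusted gave 113. The filter on dim probes tested 1430 of them and called 632 (44.2%, beside 42.4% of all probes that it kept). Leaving out 1 sample gave 299 to 583, the fit with 1 WT sample not counted. The share of rises among calls was 33.6%, and 43.0% in the scanner signals scaled to the 75th percentile, where it was 55.8% over all probes (47.1% in the table). Of the 995 exons 111 changed in strand difference. WT replicates 2 and 3 as separate samples gave 225 and normexp 306. Leaving out 1 sample gave 6 to 118, again without the fit that has 1 WT sample. Of the 111, 96 passed in the same direction in the scanner signals at the 75th percentile and 96 with normexp. For the brighter strand, a 4-fold limit put 397 exons between the limits and normexp 444, against 184; among the 505 exons with both strands detected the counts for +, - and between were 205, 193 and 107. Limits at 4-fold are wider than limits at 2-fold, so they hold at least as many exons by definition, and fewer exons enter the last counts. The offset of normexp is added to every signal, which by itself narrows log2 differences between strands. The part of the offset in the normexp count was not tested. The difference in the median strand difference, -0.14 between genotypes, was -0.28 in the scanner signals at the 75th percentile, -0.12 with quantile normalization, -0.07 with normexp and -0.15 over the 505 exons, alternatives chosen after seeing the data. Of 43 changes of named exons, none turned in sign under any alternative run. Past the threshold no longer were 14, 17 and 13 of them without APP/PS1 replicates 1, 2 and 3, 5 with normexp and 9 at the 2-fold limit. Taking the brightest probe of a strand changes nothing here, since each strand has 1 probe.

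With the replicate number as a block, 630 probes and 128 exons passed, 526 and 100 of them shared with the counts above in the same direction. Deviations of same-numbered samples correlated at 0.029, -0.0808 and 0.00307 over bright probes, and not every sample correlated best with its own number, so the numbers were not taken as pairs.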

Other observations

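The sources used here do not say what order the exon numbers follow. Among 523 pairs of exons with consecutive numbers, 55.8% had the same brighter strand and the strand differences correlated at r = 0.132; among the 204 pairs in which both exons differed by 4-fold or more, 60.8% had the same brighter strand. The genotype changes of consecutive exons correlated at r = 0.0321 on +, 0.0195 on - and -0.0182 for the strand difference. These are descriptions over exons that share arrays.

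Exons 11076 and 11077, with consecutive numbers, and exon 10200 were picked here after their values were seen. Exon 11076 has a bright + strand (11.14 ± 0.05 in WT, SD, n = 2, and 11.34 ± 0.07 in APP/PS1, SD, n = 3) and a - strand that rose from 6.71, 6.97 and 7.07 to 9.23, 9.20 and 9.25 (limma adjusted p = 0.00172), and exon 11077 rose on both strands. Exon 10200 fell on + from 7.62, 7.56 and 7.53 to 4.75, 5.04 and 4.61 (limma adjusted p = 0.00204) with - at 4.69 to 5.32.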
